A study of Mus musculus with 27 samples.

Results

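Bone morphogenetic protein (BMP) signalling was followed through 9 genes in 19 bulk RNA-seq libraries of mouse pluripotent stem cells. The genes were taken by symbol from a table of 23604 genes. No measured value served as a rule for these genes, but they were chosen with earlier results of these data known. They are the ligand genes Bmp2, Bmp4 and Bmp7, the receptor gene Bmpr1a, the target genes Id1, Id2 and Id3, and the inhibitory Smad genes Smad6 and Smad7, and all 9 were found in the table. The same genes were also read in H3K4me3, H3K27me3 and DNA methylation data of formative pluripotent stem cells (fPSCs) at passage 10 (P10), and in single fPSCs of 4 clones. BMP ligands bind paired type I and type II serine/threonine kinase receptors, and BMPR1A is a type I receptor for BMP2 and BMP4. The receptors phosphorylate SMAD1, SMAD5 and SMAD9, which enter the nucleus with SMAD4 and bind regulatory regions of target genes, among them the Id genes and Smad6. In the egg cylinder, BMP4 from the extraembryonic ectoderm acts on the neighbouring epiblast and is needed for mesoderm and primordial germ cells, while in mouse embryonic stem cells Id proteins act with leukemia inhibitory factor against neural differentiation.

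Every culture was labelled wild type. Of the fPSC lines below, the study describes 46C as a Sox1-GFP reporter line and BVSC as a Blimp1 and Stella reporter line. Its ROSAmTmG cells came from ROSAmT/mG mice and carried tdTomato. Naïve mESCs (2 libraries) were grown without feeders in N2B27 with PD035901, Chir99021 and hLIF. EpiLCs (2 libraries), a transient cell state, received Activin A at 20 ng/ml, bFgf2 at 12 ng/ml and 1% KSR, and EpiSCs (2 libraries) grew on mitomycin-treated fibroblast feeders with the same Activin A and bFgf2, 15% KSR and the tankyrase inhibitor XAV939 at 5 µM. Epiblastoids were mESCs in Matrigel with the EpiLC factors, and days 2, 3 and 4 gave 1 library each. The fPSCs were Epiblastoids carried on in Matrigel with Activin A, bFgf2 and XAV939 and without KSR, and came as P1 (1 library) and as 7 long-term libraries: P10, P20 and P30, and the lines CMT at P11, 46C at P24, BVSC at P14 and ROSAmTmG at P12. E5.5_fPSCs and E6.5_fPSCs (1 library each, P10) were derived from epiblasts. No label named a BMP ligand or a BMP inhibitor in any medium, the labels of the 4 lines wrote the XAV939 dose in mM, and no source stated that libraries of a group were separate cultures, so that p-values measured only the spread between these libraries.

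Expression was given as FPKM (fragments mapped per kilobase of transcript, scaled to the mapped total), a level per length that can be set side by side between genes. The depth of the libraries was not known. FPKM summed to 307394 to 414727 per library, and 10034 to 10933 genes reached 1 FPKM. Naïve markers summed to 1160 to 1316 FPKM in mESCs and to at most 93.4 elsewhere, and formative markers to 26.9 to 31.5 in mESCs, 189 to 201 in EpiSCs and 561 to 944 in all other libraries. Of 11 fibroblast markers, 8 to 9 reached 1 FPKM in the EpiSCs, where the list summed to 269 to 374 against 2.28 to 14.6 in all other libraries. RNAs without a poly(A) tail, which depend on how a library was made, summed to 234 to 316 FPKM in fPSCs P10, P20 and P30, whose labels named total RNA-seq, and to 7.54 to 14.4 in the 4 lines, whose labels named a NEBNext kit. The same list reached 1291 to 3826 in mESCs and 14.2 to 26.0 in EpiLCs under a single label. The study gives P1, P10, P20 and P30 as passages of CMT and CMT P11 as cryopreserved cells, so that CMT P11 shares the line, and nearly the passage, with P10. For the other 3 lines, line, passage and wording of the label cannot be told apart from each other, nor can cryopreservation and wording for CMT P11.

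Promoter sequences from RefSeq (GRCm38.p6) were matched for 5 of the 9 genes (Bmp4, Bmpr1a, Id2, Id3 and Smad6), and 4 are shown because they stand for a ligand, the 2 Id genes with called changes in fPSCs and an inhibitory Smad. Each line runs 5′ to 3′ on the gene's strand, from 250 bases before the start of transcription to 30 bases after it. Capitals mark matches, on either strand, to GGCGCC, a GC-rich SMAD element, or to GTCTAGAC, the SMAD palindrome. The windows are chr14:46390640-46390919 (minus strand) for Bmp4, chr12:25096063-25096342 (minus strand) for Id2, chr4:136143572-136143851 (plus strand) for Id3 and chr9:64022030-64022309 (minus strand) for Smad6.
Bmp4: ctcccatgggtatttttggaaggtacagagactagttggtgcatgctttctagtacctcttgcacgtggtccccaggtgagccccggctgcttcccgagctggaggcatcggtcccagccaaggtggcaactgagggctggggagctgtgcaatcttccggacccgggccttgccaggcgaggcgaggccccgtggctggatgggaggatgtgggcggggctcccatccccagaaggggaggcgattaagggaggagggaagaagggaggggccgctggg
Id2: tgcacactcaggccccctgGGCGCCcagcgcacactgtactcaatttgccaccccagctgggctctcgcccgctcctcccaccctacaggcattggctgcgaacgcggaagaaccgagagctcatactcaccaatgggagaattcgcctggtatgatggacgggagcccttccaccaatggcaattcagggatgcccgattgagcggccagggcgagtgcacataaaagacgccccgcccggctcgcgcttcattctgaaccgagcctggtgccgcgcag
Id3: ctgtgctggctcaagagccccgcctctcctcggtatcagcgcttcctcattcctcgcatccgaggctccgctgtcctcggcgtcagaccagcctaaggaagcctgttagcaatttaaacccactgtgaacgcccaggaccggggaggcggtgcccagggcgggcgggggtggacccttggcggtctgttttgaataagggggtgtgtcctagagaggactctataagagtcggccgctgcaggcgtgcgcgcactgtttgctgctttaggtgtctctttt
Smad6: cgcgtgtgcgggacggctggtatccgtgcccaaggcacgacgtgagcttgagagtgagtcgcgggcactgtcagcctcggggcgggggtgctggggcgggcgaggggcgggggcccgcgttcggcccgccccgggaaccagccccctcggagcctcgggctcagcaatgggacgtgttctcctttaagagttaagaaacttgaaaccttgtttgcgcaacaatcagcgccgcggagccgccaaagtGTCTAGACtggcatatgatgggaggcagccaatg

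The Id2 promoter held GGCGCC 231 bases before its start, and the Bmpr1a promoter held it 198 bases before its start. Among all 32851 promoters of the same 300 bases, 11.9% had this match. In Smad6 the palindrome GTCTAGAC began 4 bases before the start and ran across it, a match held by 70 of the 32851 promoters (0.213%). The bare SMAD box GTCT, which the palindrome contains, was present in all 5 promoters and in 88.0% of all. CG pairs numbered 48 in the 300 bases of Bmpr1a, 31 in Smad6, 21 in Id2, 19 in Id3 and 12 in Bmp4, against a median of 7 and an upper quartile of 20 over all promoters. These matches describe letters in the windows and not binding.

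Of the 3 Id genes followed, Id2 and Id3 stood higher in the long-term fPSCs than in mESCs and EpiLCs. EpiSCs also lay above mESCs in both genes and overlapped the fPSCs. Id4, outside the 9, was lower in fPSCs than in mESCs. Id3 was highest of all libraries in the line ROSAmTmG P12 (41.4 FPKM). In P10, P20 and P30 it was at 8.19 to 13.1 FPKM, below both EpiSC libraries. Bmpr1a was expressed in every library and was lowest in mESCs. The 3 ligand genes were low in most libraries, and all 3 peaked in day 4 Epiblastoids or, for Bmp2, in the 46C line. A gene was called where the limma adjusted p was under 0.05 and the fold on log2(FPKM + 1) was at least 1.5, over 12513 genes at 1 FPKM or more in 2 or more of the 13 libraries of mESCs, EpiLCs, EpiSCs and long-term fPSCs. All 9 genes passed that filter, but Bmp2 passed it through EpiSCs and fPSCs alone. In bulk RNA, fewer cells expressing a gene and less RNA per cell cannot be told apart.

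Against mESCs, EpiLCs had 1 of the 9 genes called higher (12.2% of all genes tested) and 2 lower (17.4%). EpiSCs against mESCs had 3 higher (23.1%) and 1 lower (24.7%), and fPSCs against mESCs 3 higher (17.3%) and 0 lower (23.0%). The 3 higher in EpiSCs include Bmp2, which passed the filter through EpiSCs and fPSCs alone. In fPSCs against EpiLCs, 4 of the 9 were called higher, where 5.66% of all genes were, and 0 lower (8.15%). EpiSCs against EpiLCs gave 4 higher (20.4%) and 0 lower (15.5%), and EpiSCs against fPSCs 1 higher (19%) and 0 lower (13.3%). These comparisons share libraries, and the median log2 fold changes of the 9 genes were -0.34, 0.61, 0.38, 1.22, 0.96 and 0.12 in the order given, beside medians between -0.09 and 0.01 over all genes. The 4 calls against EpiLCs in fPSCs were all lost without either EpiLC library, while the 3 calls in fPSCs against mESCs were made in each of 16 alternatives. RNAs without a poly(A) tail summed to 1291 to 3826 FPKM in mESCs and to 7.54 to 316 in long-term fPSCs. In EpiLCs the sum was 14.2 to 26.0. No alternative set mESCs beside libraries of a like sum. The part of these RNAs in any comparison with mESCs was not tested.

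**Figure D1:**
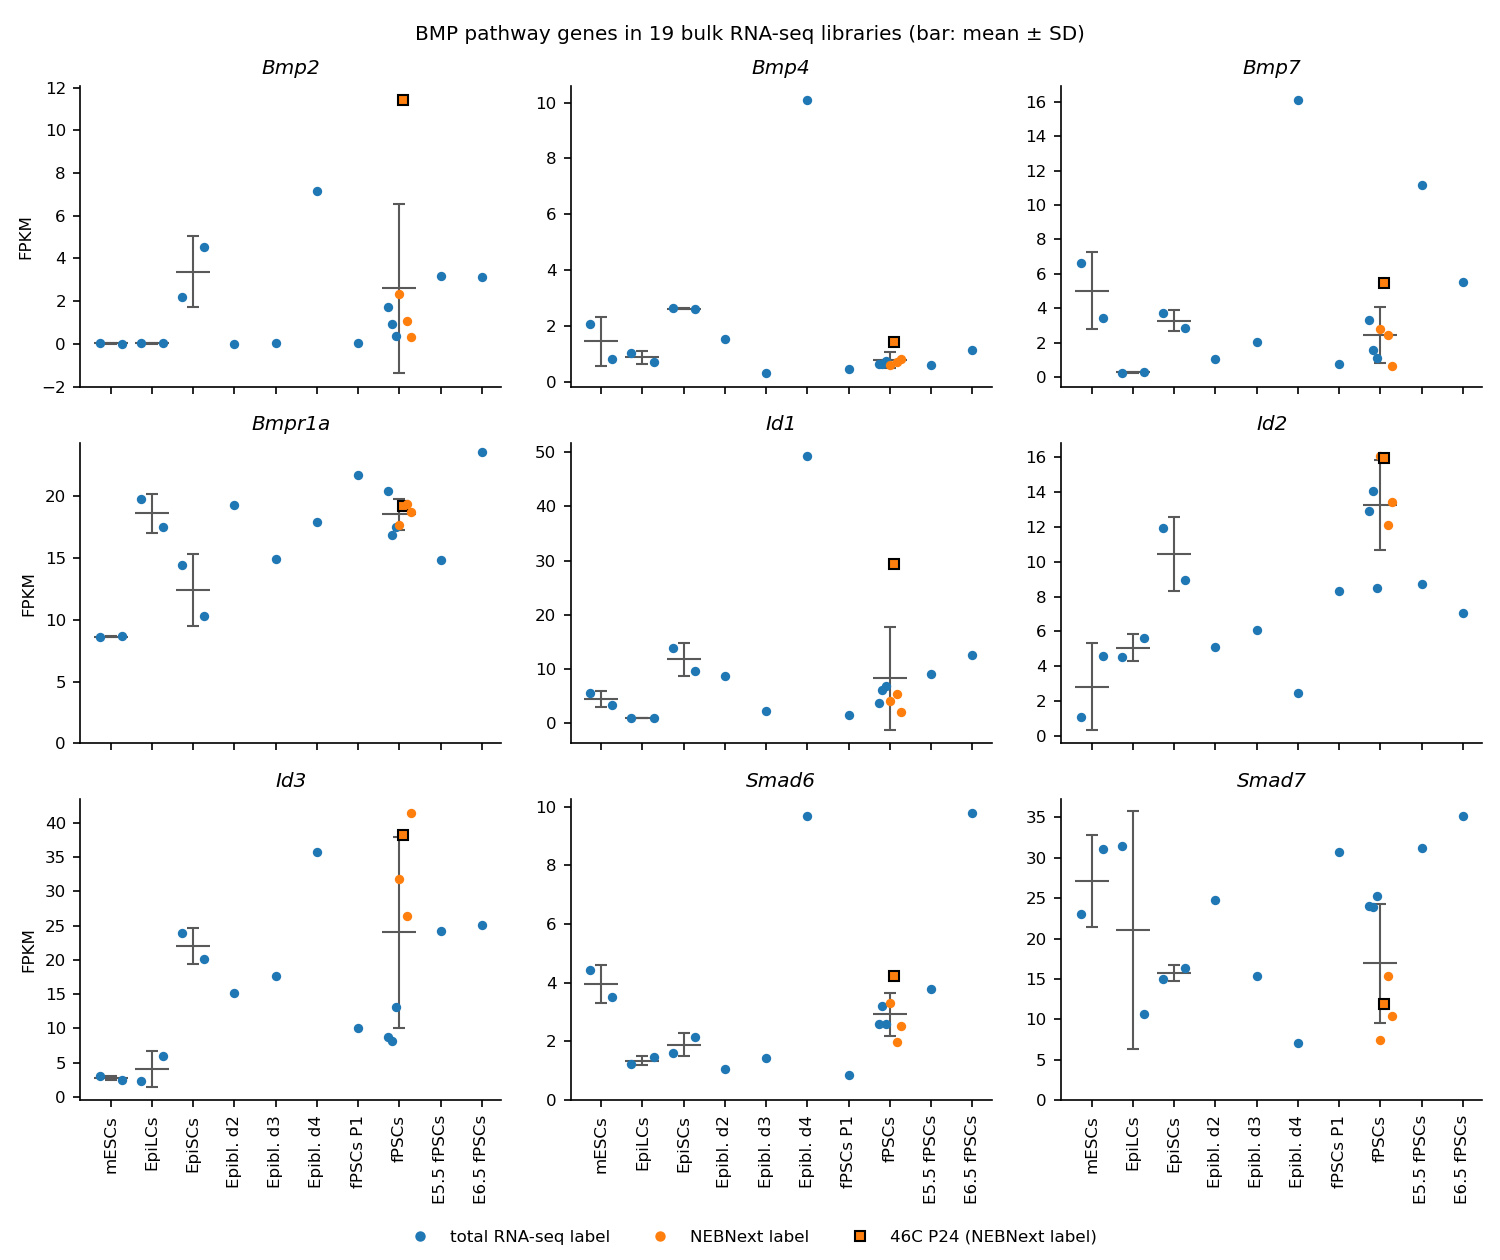
Each panel plots 1 gene in FPKM (linear axis) for every library by group, with the mean ± SD as a bar where a group has 2 or more libraries. Id2 and Id3 are higher in the 7 long-term fPSC libraries than in both mESC libraries, Bmpr1a lies at about 8.60 to 8.66 FPKM in mESCs and above 10 elsewhere, and the 46C square stands apart for Bmp2 and Id1.

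**Figure D2:**
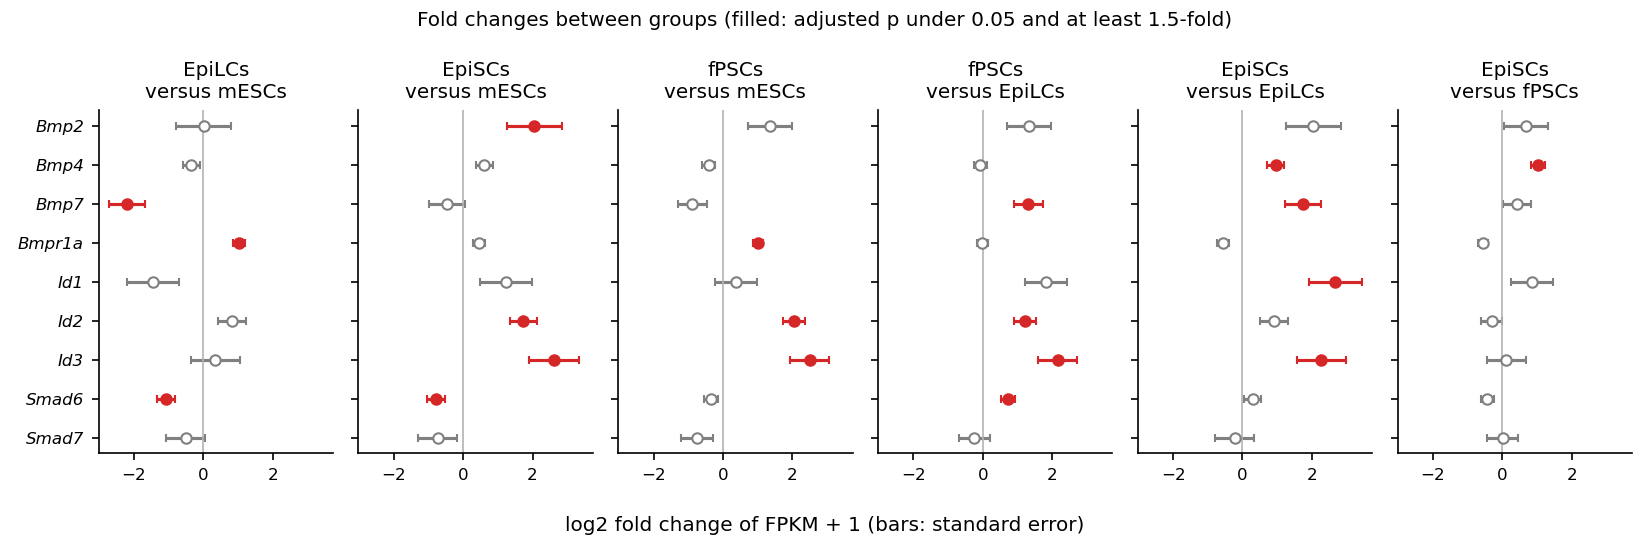
Log2 fold changes of FPKM + 1 (limma, bars are standard errors) are drawn for the 9 genes in the 6 comparisons, with filled red points for calls. Id2 and Id3 are called higher in fPSCs against both mESCs and EpiLCs, and Bmpr1a in fPSCs and EpiLCs against mESCs.

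Bmp2 encodes a ligand that signals through BMPR1A and takes part in mesoderm and heart formation (ENSMUSG00000027358.6, mm9 chr2:133377895-133388621, plus strand). It was listed at 0.0392 and 0 FPKM in mESCs, at 0.0204 and 0.0406 in EpiLCs and at 2.21 and 4.55 in EpiSCs. Epiblastoids held 0.00775, 0.0216 and 7.17 FPKM at days 2, 3 and 4, and fPSCs P1 0.0192. Long-term fPSCs ranged from 0.311 to 11.4 with a median of 1.09 FPKM, and E5.5_fPSCs and E6.5_fPSCs held 3.18 and 3.13. EpiSCs and long-term fPSCs therefore lay wholly above mESCs and EpiLCs, and the epiblast-derived lines lay inside the EpiSC range.
In EpiSCs against mESCs the log2 fold change was 2.05 ± 0.79 (SE), a call that was lost without the filter on low values and without any 1 of the 4 libraries. Bmp2 passed that filter through EpiSCs and fPSCs alone, so that no p-value is given for it. For the same reason its calls against mESCs and EpiLCs, here and below, only describe the fits and are no support for a rise. Long-term fPSCs averaged 2.60 ± 3.96 FPKM (SD, n = 7), and 1.12 ± 0.779 (n = 6) without 46C P24. Their log2 fold change against mESCs was 1.35 ± 0.64 and was not called. It was called without 46C P24 (0.98), with P10, P20 and P30 alone (0.92) and with a pseudocount of 0.1 (3.6). Against EpiLCs the 1.34 was not called, but was with that pseudocount (3.46) and with P10, P20 and P30 alone (0.91). EpiSCs against EpiLCs (2.03) were not called, but were with that pseudocount (4.66) and with only the groups compared. The fibroblast markers were high in the same EpiSC libraries, and their part in the Bmp2 and Bmp7 levels was not tested. Between EpiSCs and fPSCs no difference was called, and a higher level in EpiSCs was called without 46C P24 (1.07) and with P10, P20 and P30 alone (1.13). The order of means was EpiSCs (3.38 ± 1.65 FPKM, n = 2), fPSCs, EpiLCs (0.0305 ± 0.0143, n = 2) and mESCs (0.0196 ± 0.0277, n = 2), with EpiSCs and fPSCs within their spread, as were EpiLCs and mESCs.

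Bmp4, the ligand that the extraembryonic ectoderm supplies to the epiblast, lies at mm9 chr14:47003195-47010344 (ENSMUSG00000021835.8, minus strand). Its levels were 2.06 and 0.826 FPKM in mESCs, 1.02 and 0.718 in EpiLCs and 2.63 and 2.61 in EpiSCs. Epiblastoids gave 1.53, 0.312 and 10.1 FPKM at days 2, 3 and 4, and fPSCs P1 gave 0.460. The 7 long-term fPSC libraries lay between 0.611 and 1.42 FPKM with a median of 0.707, and E5.5_fPSCs and E6.5_fPSCs at 0.617 and 1.12. Both EpiSC libraries were above every other library except day 4, and fPSCs overlapped mESCs and EpiLCs.
EpiSCs exceeded fPSCs by 1.02 ± 0.19 on the log2 scale (limma adjusted p = 0.00140), a call made in all 16 alternatives, and EpiLCs by 0.96 ± 0.24 (adjusted p = 0.00811), which was lost without EpiLC replicate 2. The difference of 0.61 ± 0.24 from mESCs was not called (limma adjusted p = 0.0513), but was without mESC replicate 1 (0.99) and with upper-quartile scaling (0.63). Without mESC replicate 2, EpiLCs (-0.72) and fPSCs (-0.78) were called below mESCs. Fibroblast markers as a list were high in the same EpiSC libraries. Col1a1, the collagen gene of fibroblasts, was at 111 and 153 FPKM there and at most 0.878 in the other libraries. Day 4, the library with the most Bmp4, held 0.866. Of the other listed markers, Dcn was higher in EpiLCs (4.48 and 6.10 FPKM) than in EpiSCs (2.82 and 1.88). Thy1 was highest in ROSAmTmG P12 (7.64) and Pdgfrb at day 4 (5.10). The part of these markers in the Bmp4 level was not tested. Group means in falling order were 2.62 ± 0.0128 in EpiSCs (SD, n = 2), 1.44 ± 0.876 in mESCs (n = 2), 0.871 ± 0.217 in EpiLCs (n = 2) and 0.796 ± 0.286 in fPSCs (n = 7), and neighbours among the last 3 were within their spread.

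Bmp7, a ligand that pairs with BMP2 or BMP4 and is known from kidney and eye development, lies at mm9 chr2:172693513-172765822 (ENSMUSG00000008999.7, minus strand). It was at 6.62 and 3.43 FPKM in mESCs, 0.239 and 0.298 in EpiLCs and 3.70 and 2.83 in EpiSCs. Days 2, 3 and 4 of Epiblastoids held 1.03, 2.03 and 16.1 FPKM, and fPSCs P1 0.782. Long-term fPSCs ranged from 0.621 to 5.45 with a median of 2.42 FPKM, below the 11.2 and 5.52 of E5.5_fPSCs and E6.5_fPSCs. EpiLCs were lowest of all groups and overlapped no other library.
EpiLCs had fallen by 2.2 ± 0.52 on the log2 scale against mESCs (limma adjusted p = 0.00601), a call lost without mESC replicate 1. fPSCs were above EpiLCs by 1.32 ± 0.41 (limma adjusted p = 0.0494), near the threshold and called in 7 of 16 alternatives. It was lost without the filter, with robust variances, with only the groups compared, and without either EpiLC library, P10, P20, BVSC P14 or CMT P11. EpiSCs were above EpiLCs by 1.74 ± 0.52 (limma adjusted p = 0.0190), called in 5 of 10 alternatives and lost when any 1 of the 4 libraries was left out. mESCs (5.03 ± 2.26 FPKM, SD, n = 2), EpiSCs (3.27 ± 0.613, n = 2) and fPSCs (2.46 ± 1.62, n = 7) lay within their spread, although fPSCs were called lower than mESCs, once 46C P24 was left out (-1.05) and with P10, P20 and P30 alone (-1.03).

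Bmpr1a encodes the type I receptor for BMP2 and BMP4 that gastrulation needs (ENSMUSG00000021796.8, mm9 chr14:35223920-35316527, minus strand). Both mESC libraries stood at 8.60 and 8.66 FPKM, EpiLCs at 19.7 and 17.5 and EpiSCs at 14.4 and 10.3. Epiblastoids had 19.3, 14.9 and 17.9 FPKM at days 2, 3 and 4, and fPSCs P1 had 21.7. Long-term fPSCs lay between 16.8 and 20.4 with a median of 18.7 FPKM, E5.5_fPSCs at 14.8 and E6.5_fPSCs at 23.5. Every library outside mESCs was above both mESC libraries, and EpiSCs overlapped neither EpiLCs nor fPSCs.
The rise against mESCs was 1.02 ± 0.18 in EpiLCs (limma adjusted p = 0.000877) and 1.02 ± 0.14 in fPSCs (limma adjusted p = 8.96e-05), and both calls were made in every alternative. EpiSCs differed from mESCs by 0.46 ± 0.18 (limma adjusted p = 0.0525). EpiSCs were below EpiLCs by -0.57 ± 0.18 (limma adjusted p = 0.0269) and below fPSCs by -0.56 ± 0.14 (limma adjusted p = 0.00998) on the log2 scale, folds under the 1.5 that a call needs. With a pseudocount of 0.1 or upper-quartile scaling, the difference from fPSCs was called at -0.59 and -0.64, and that from EpiLCs at -0.60 and -0.67. Without EpiSC replicate 1 both differences were called (-0.79 and -0.78), and without EpiSC replicate 2 EpiSCs were called above mESCs (0.68). EpiLCs and fPSCs lay within their spread (18.6 ± 1.60 FPKM, SD, n = 2, against 18.5 ± 1.24, n = 7).

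Id1, an inhibitor of basic helix-loop-helix factors and a direct SMAD target, lies at mm9 chr2:152561987-152563146 (ENSMUSG00000042745.9, plus strand). mESCs held 5.54 and 3.43 FPKM, EpiLCs 0.912 and 1.04 and EpiSCs 14 and 9.69. In Epiblastoids it was at 8.65, 2.30 and 49.2 FPKM at days 2, 3 and 4, and in fPSCs P1 at 1.49. The long-term fPSCs ranged from 2.12 to 29.4 with a median of 5.48 FPKM, and E5.5_fPSCs and E6.5_fPSCs held 9.07 and 12.6. EpiLCs lay below every other library, and 46C P24 (29.4) and day 4 (49.2) above every other.
EpiSCs exceeded EpiLCs by 2.68 ± 0.75 on the log2 scale (limma adjusted p = 0.0144), called in 6 of 10 alternatives and lost without any 1 of the 4 libraries. fPSCs differed from EpiLCs by 1.83 ± 0.60 (limma adjusted p = 0.0595), and the difference was called at 1.48 without 46C P24, at 2.02 without ROSAmTmG P12, at 1.71 with P10, P20 and P30 alone and at 2.46 with a pseudocount of 0.1. fPSCs averaged 8.26 ± 9.46 FPKM (SD, n = 7), or 4.74 ± 1.74 (n = 6) without 46C P24. EpiSCs were called above fPSCs without it (1.20) and with P10, P20 and P30 alone (0.97). Neither EpiSCs (1.23 ± 0.75) nor EpiLCs (-1.45 ± 0.75) passed against mESCs (limma adjusted p = 0.190 and 0.170), although both were called with only the groups compared. Means fell from EpiSCs (11.8 ± 3.02 FPKM, SD, n = 2) through fPSCs and mESCs (4.48 ± 1.5, n = 2) to EpiLCs (0.974 ± 0.0885, n = 2), with no neighbours called apart.

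Id2, of the same family and with roles in lymphoid and neural progenitors, lies at mm9 chr12:25778666-25780957 (ENSMUSG00000020644.8, minus strand). It was at 1.08 and 4.59 FPKM in mESCs, 4.51 and 5.63 in EpiLCs and 11.9 and 8.92 in EpiSCs. Epiblastoids had 5.08, 6.10 and 2.48 FPKM at days 2, 3 and 4, and fPSCs P1 had 8.30. Long-term fPSCs ranged from 8.47 to 16.1 with a median of 13.4 FPKM, and E5.5_fPSCs and E6.5_fPSCs held 8.72 and 7.05. The lowest fPSC library was above the highest mESC and EpiLC library, and fPSCs overlapped EpiSCs.
fPSCs were above mESCs by 2.05 ± 0.32 on the log2 scale (limma adjusted p = 0.000170) and above EpiLCs by 1.22 ± 0.32 (adjusted p = 0.0193). EpiSCs were above mESCs by 1.73 ± 0.39 (limma adjusted p = 0.00291). The calls against mESCs were made in every alternative, and that against EpiLCs was lost without either EpiLC library and when the fPSCs were limited to P10, P20 and P30 (1.05). Without mESC replicate 2, EpiLCs were called above mESCs as well (1.54), and with only the groups compared EpiSCs above EpiLCs (0.91). Id2 was the Id gene that was lower at day 4 than at day 3, and its 2.48 FPKM there was its lowest level outside mESCs. The order of means was fPSCs (13.3 ± 2.59 FPKM, SD, n = 7), EpiSCs (10.4 ± 2.14, n = 2), EpiLCs (5.07 ± 0.796, n = 2) and mESCs (2.83 ± 2.48, n = 2), and neighbours in it were not called apart.

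Id3, which acts with Id1 in the early embryo, lies at mm9 chr4:135699412-135701670 (ENSMUSG00000007872.3, plus strand). mESCs held 2.98 and 2.52 FPKM, EpiLCs 2.25 and 5.91 and EpiSCs 23.9 and 20.1. Epiblastoids had 15.1, 17.6 and 35.7 FPKM at days 2, 3 and 4, and fPSCs P1 10.1. Among long-term fPSCs the values were 8.79, 8.19 and 13.1 in P10, P20 and P30 and 31.9, 38.3, 26.3 and 41.4 in CMT P11, 46C P24, BVSC P14 and ROSAmTmG P12. E5.5_fPSCs and E6.5_fPSCs held 24.3 and 25.1 FPKM, so that all libraries outside mESCs and EpiLCs were above all 4 of theirs.
fPSCs were above mESCs by 2.50 ± 0.57 on the log2 scale (limma adjusted p = 0.00317), by 1.53 with P10, P20 and P30 alone and by 3.23 with the 4 lines alone, all 3 called. Against EpiLCs the rise was 2.16 ± 0.57 (limma adjusted p = 0.0215), and 1.19 and 2.88 in those sets, both called, but not without the filter or with only the groups compared. EpiSCs were above mESCs by 2.62 ± 0.71 (limma adjusted p = 0.00878) and above EpiLCs by 2.27 ± 0.71 (adjusted p = 0.0245). The first call was lost without mESC replicate 2 or EpiSC replicate 1, and the second without the filter, EpiLC replicate 1 or either EpiSC library. Fibroblast markers (269 to 374 FPKM against at most 14.6) were high in the same EpiSC libraries, and their part in the Id1, Id2 and Id3 levels was not tested. Against fPSCs, EpiSCs were at 0.12 ± 0.57 on the log2 scale, at 1.08 (called) against P10, P20 and P30 and at -0.61 against the 4 lines. In the order of means, fPSCs (24 ± 14 FPKM, SD, n = 7), EpiSCs (22.0 ± 2.63, n = 2), EpiLCs (4.08 ± 2.58, n = 2) and mESCs (2.75 ± 0.322, n = 2), the step from EpiSCs to EpiLCs was the one called between neighbours.

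Smad6, an inhibitory Smad that competes with SMAD4 and is itself a BMP target, lies at mm9 chr9:63800953-63869866 (ENSMUSG00000036867.5, minus strand), and its promoter is the one with the SMAD palindrome above. It was at 4.43 and 3.51 FPKM in mESCs, 1.24 and 1.46 in EpiLCs and 1.62 and 2.16 in EpiSCs. Epiblastoids had 1.05, 1.43 and 9.68 FPKM at days 2, 3 and 4, and fPSCs P1 0.869. Long-term fPSCs ranged from 1.98 to 4.25 with a median of 2.61 FPKM, and E5.5_fPSCs and E6.5_fPSCs held 3.79 and 9.80. Both mESC libraries lay above EpiLCs and EpiSCs and overlapped fPSCs, and the E6.5 line and day 4 stood far above the rest.
Against mESCs, Smad6 fell by 1.08 ± 0.25 on the log2 scale in EpiLCs (limma adjusted p = 0.00549, called in every alternative). The fall in EpiSCs was -0.78 ± 0.25 (limma adjusted p = 0.0203), lost without mESC replicate 1 or EpiSC replicate 1. fPSCs were above EpiLCs by 0.72 ± 0.20 (limma adjusted p = 0.0276). Group means fell from 3.97 ± 0.647 in mESCs (SD, n = 2) through 2.93 ± 0.737 in fPSCs (n = 7) and 1.89 ± 0.388 in EpiSCs (n = 2) to 1.35 ± 0.152 in EpiLCs (n = 2), and no pair of neighbours in this order was called.

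Smad7, which recruits ubiquitin ligases to both BMP and TGF-β receptors, was the most expressed of the 9 genes in mESCs (ENSMUSG00000025880.5, on chromosome 18). It was at 23.1 and 31.1 FPKM in mESCs, 31.5 and 10.7 in EpiLCs and 15.0 and 16.4 in EpiSCs. Epiblastoids had 24.8, 15.3 and 7.09 FPKM at days 2, 3 and 4, and fPSCs P1 30.7. In long-term fPSCs it was at 24, 23.9 and 25.2 in P10, P20 and P30 and at 7.44, 11.9, 15.4 and 10.5 in CMT P11, 46C P24, BVSC P14 and ROSAmTmG P12, and E5.5_fPSCs and E6.5_fPSCs held 31.3 and 35.2. The EpiLC libraries lay far apart, and none of the 6 comparisons was called, although EpiSCs against mESCs (-0.73) were with only the groups compared. Against mESCs, the 4 lines alone were called lower (-1.21) and P10, P20 and P30 were at -0.13. The order of means was mESCs (27.1 ± 5.70 FPKM, SD, n = 2), EpiLCs (21.1 ± 14.7, n = 2), fPSCs (16.9 ± 7.38, n = 7) and EpiSCs (15.7 ± 0.979, n = 2), and neighbours in it were not called apart. Smad7 was at its lowest in day 4, the library in which Bmp4, Bmp7 and Id1 were at their highest.

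Within the long-term fPSCs, Id3 and Smad7 separated the 4 lines from P10, P20 and P30 with no overlap, in opposite directions, and the other 7 genes overlapped. Of all 12513 genes, 31.8% were higher and 14.8% lower in the lines without overlap, so that 1 of 9 in each direction was no larger a share. Id3 was at 34.5 ± 6.73 FPKM (SD, n = 4) in the lines and 10.02 ± 2.67 (n = 3) in P10, P20 and P30, a log2 difference of 1.69 ± 0.25 (limma adjusted p = 0.000584). Smad7 was at 11.3 ± 3.31 FPKM (n = 4) against 24.4 ± 0.724 (n = 3), a log2 difference of -1.08 ± 0.30 (limma adjusted p = 0.0148). So 1 of the 9 genes was called higher in the lines (18.2% of all genes) and 1 lower (7.74%). The median of all genes was itself shifted by 0.15 in this comparison, and upper-quartile scaling brought it to 0.03. CMT P11 alone, of the same line as P10, P20 and P30, gave 1.60 for Id3, still called, and -1.59 for Smad7, not called. Poly(A)-free RNAs moved with the sets, as given above, and their part was not tested.

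The line 46C P24 stood apart from the other 6 long-term fPSC libraries in Bmp2 (11.4 FPKM against 0.311 to 2.32), Bmp4 (1.42 against 0.611 to 0.816) and Id1 (29.4 against 2.12 to 6.83). It was also highest of the 7 in Bmp7 (5.45) and Smad6 (4.25), but not in Bmpr1a, Id2, Id3 or Smad7. Genes of streak and endoderm moved with it. Cer1, a secreted BMP and Nodal antagonist of the anterior endoderm, was at 203 FPKM there and at 2.23 to 46.2 in the other 6. Chrd, a BMP antagonist of the node, was at 55.3 against 2.47 to 20.5, and Sox17, an endoderm factor, at 50.6 against 0.265 to 13.1. Across the 7 libraries, 6 primitive streak and mesoderm markers summed to 37.1 to 278 FPKM, 5 of them at 1 FPKM or more in each. The 6 visceral endoderm markers summed to 69.4 FPKM in 46C P24 against 1.16 to 17.3 in the other 6, and 2 of them reached 1 FPKM there, Sox17 and the apolipoprotein gene Apoa1 (16.9 against 0.154 to 3.59). Ttr was at 0.898 FPKM there, its highest of the 7, and Afp was at 0 in all 7. Amn was at 0.898 FPKM there and 0.964 in P20, and Cubn was at most 0.0380 in the 7. The part of these marker genes in the Bmp2 and Id1 levels was not tested.

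Epiblastoids changed between days 3 and 4, and each day was a single library, so that no test was possible. From day 3 to day 4 the log2 ratio of FPKM + 1 was 3.00 for Bmp2, 3.08 for Bmp4, 2.50 for Bmp7, 3.93 for Id1 and 2.14 for Smad6. These 5 of the 9 genes rose by 1 or more, as did 7.85% of 11357 genes. Id3 was just under that size (0.98) and Bmpr1a changed little (0.24). Id2 (-1.03) and Smad7 (-1.01) were the 2 that fell by 1 or more, as did 8.22% of all genes, although under upper-quartile scaling both were within 1 (-0.94 and -0.91) and Id3 passed it (1.09). The median of all genes was -0.14. Streak and mesoderm markers summed to 685 FPKM at day 4 and 52.1 at day 3, Cer1 went from 0 to 295 FPKM and Sox17 from 0.145 to 68.7, and their part in the rise was not tested.
From day 2 to day 3 the ligand Bmp4 (-0.95) and the target Id1 (-1.55) were lower. Id1 alone of the 9 passed a log2 ratio of 1 in size, where 2.47% of 11095 genes fell and 3.11% rose by that much. With a pseudocount of 0.1 Bmp4 fell by 1.99. Poly(A)-free RNAs summed to 17.0 FPKM at day 2, 1174 at day 3 and 762 at day 4, and their part in these steps was not tested.

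**Figure D3:**
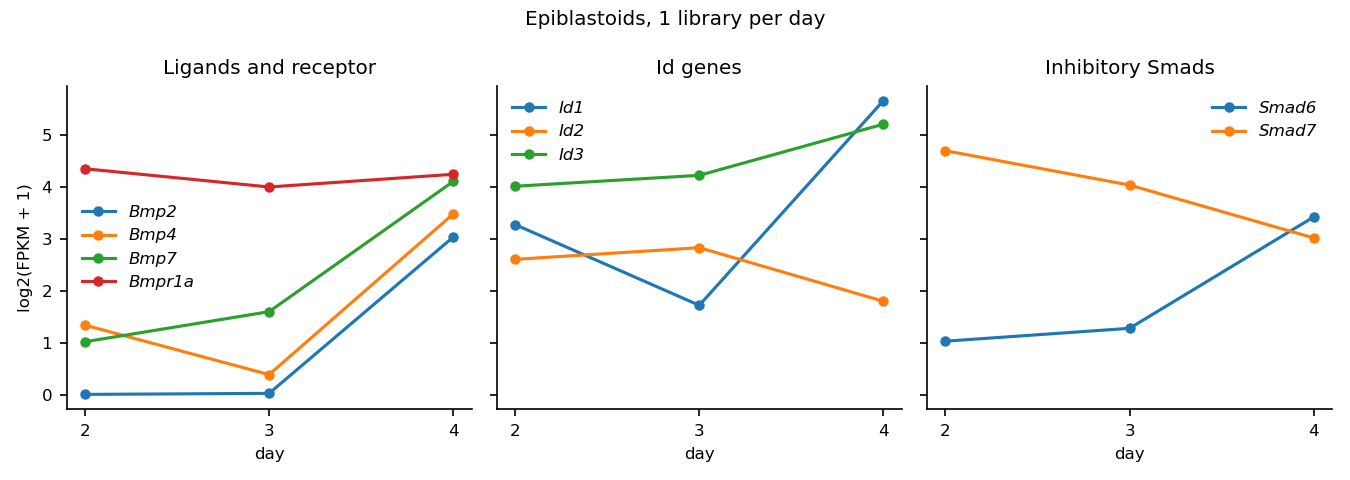
Lines join log2(FPKM + 1) of each gene in Epiblastoids at days 2, 3 and 4, with 1 library per day and no error. The 3 ligands, Id1 and Smad6 rise at day 4, by log2 ratios of 2.14 to 3.93, while Id2 and Smad7 end lower.

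The first passage of fPSCs resembled neither day 4 nor the later passages in several of these genes. Bmp2 (0.0192 FPKM), Bmp7 (0.782), Id1 (1.49) and Smad6 (0.869) at P1 compared with 0.311, 0.621, 2.12 and 1.98 in the lowest of the 7 long-term libraries, so that all but Bmp7 were below them, as were Bmp4 (0.460 against 0.611) and Id2 (8.30 against 8.47). Smad7 (30.7) and Bmpr1a (21.7) were above the highest (25.2 and 20.4), and Id3 (10.1) was within the range. Lines from epiblasts were above all 7 long-term libraries of mESC origin in Bmp7 and Smad7, and E6.5_fPSCs also in Smad6 and Bmpr1a. E5.5_fPSCs were below all 7 in Bmpr1a (14.8 FPKM against a lowest of 16.8) and E6.5_fPSCs in Id2 (7.05 against 8.47). These are single libraries, and the differences were not tested.

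Other genes of the pathway, taken from lists of 49 symbols, were mostly low, and 27 of them were tested. Against mESCs, 2 of the 27 were called higher and 4 lower in EpiLCs (12.2% and 17.4% of all genes), 13 and 4 in EpiSCs (23.1% and 24.7%) and 10 and 7 in fPSCs (17.3% and 23.0%). Against EpiLCs, the counts were 4 and 4 in fPSCs (5.66% and 8.15%) and 10 and 3 in EpiSCs (20.4% and 15.5%). In EpiSCs against fPSCs they were 11 and 1 (19% and 13.3%). Some counted genes passed the filter only through groups where they were high. Hand1, Nog and Acvrl1 passed through EpiSCs alone, Smad9 and Id4 through mESCs alone, and Cer1 through EpiSCs and fPSCs alone. The counts beside the shares of all genes therefore only describe the lists. Among 12 other ligands 1 was tested, Gdf3, a Nodal-related ligand. Gdf3 fell from 43.1 ± 3.91 FPKM in mESCs (SD, n = 2) to 0.274 ± 0.381 in fPSCs (n = 7), a log2 change of -5.16 (limma adjusted p = 3.04e-09). EpiLCs held 29.1 and 35.9 FPKM of it and were not called apart from mESCs (-0.40, limma adjusted p = 0.367). Of 8 receptors and co-receptors tested, 2 were higher and 3 lower in fPSCs against mESCs, among the latter the co-receptor Eng, which fell by 3.80 (limma adjusted p = 1.89e-08). Rgma, a co-receptor for BMPs, was 31.3 ± 2.89 FPKM in EpiSCs (n = 2) and 2.97 ± 1.32 in fPSCs (n = 7), 3.09 apart on the log2 scale (limma adjusted p = 6.30e-06). All 4 mediators (Smad1, Smad5, Smad9 and Smad4) were tested, and 3 were higher and 1 lower in fPSCs against mESCs. The 1 lower was Smad9, which passed the filter through mESCs alone.
Of 10 antagonists and negative regulators tested, 4 were higher and 0 lower in fPSCs against mESCs, beside the 17.3% and 23.0% of all genes. Cer1 rose by 4.12 on the log2 scale against mESCs and by 4.05 against EpiLCs, and Chrd by 2.89 against EpiLCs (limma adjusted p = 0.0218). Cer1 passed the filter through EpiSCs and fPSCs alone, so that no p-value is given for it. Of 4 other targets tested, 3 were called higher in EpiSCs against each of mESCs, EpiLCs and fPSCs (23.1%, 20.4% and 19% of all genes). These were Hand1, Gata2 and Dusp9 against mESCs and fPSCs, and Hand1, Gata2 and Id4 (0.66) against EpiLCs. Against mESCs, 1 was called lower, Id4. Id4, the remaining Id gene, was at 4.25 and 4.10 FPKM in mESCs and at most 0.841 in every other library. Its log2 difference from mESCs was -2.24 in EpiLCs, -1.57 in EpiSCs and -2.07 in fPSCs. Id4 passed the filter through mESCs alone, so that no p-value is given for it. It is named here after its values were seen. Hand1, a mesoderm and trophoblast factor, was 44.7 ± 17.0 FPKM in EpiSCs (SD, n = 2) and 0.0852 ± 0.0618 in fPSCs (n = 7). These were 5.35 apart on the log2 scale, and Gata2 was 2.83 apart. Hand1 passed the filter through EpiSCs alone, and Gata2 reached 1 FPKM only in EpiSCs and mESC replicate 1. No p-value is therefore given for either. Fibroblast markers were high in these same EpiSC libraries, and their part in the Hand1, Gata2 and Rgma levels was not tested. Dusp9, a phosphatase gene induced by BMP4 in mESCs, was higher in EpiLCs than in mESCs by 3.71 (limma adjusted p = 8.29e-07), at 93.7 ± 3.38 and 6.24 ± 0.549 FPKM (n = 2 each).

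Genes with the most similar pattern were ranked by Pearson's r of log2(FPKM + 1) over the 19 libraries, among 7825 genes at 10 FPKM or more in some library. Bmp4 was followed most closely by Zfpm1 (r = 0.911), Klhl6 (0.878) and Kdr (0.857), all highest at day 4. For Id1 they were Jag1 (0.870), Dhdds (0.861) and Pcdh7 (0.846), also highest at day 4, and for Id3 Cacfd1 (0.914), Miip (0.899) and Gstk1 (0.876). Among the 9 genes themselves r was 0.814 for Bmp2 and Id1, 0.718 for Bmp4 and Id1, 0.771 for both Bmp7 and Id1 and Bmp7 and Smad6, and -0.012 for Id1 and Id2. The points share libraries of a line, a medium or a preparation and include the single day 4 library, so these values only describe the table.

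In P10 fPSCs the promoters of these genes carried H3K4me3, a mark of active or poised starts, and part of them also H3K27me3, the Polycomb mark. Each value is the mean RPKM within 5000 bp of the start in 1 track per mark, with its percentile among 22072 protein-coding promoters. The labels list 2 replicates per mark and the study integrated them, but the tracks do not show whether they hold both, and no spread between replicates can be given. H3K4me3 was in the upper 25% in 8 of the 9, from 2.21 RPKM at Bmp4 to 5.10 at Smad7 and 5.26 at Id2 (99.4th percentile for each of the last pair), and at 1.63 in Bmp2 (65.9th), beside a median of 1.13. H3K27me3 was in the upper 25% in 5: Bmp7 (2.98 RPKM, 97.6th percentile), Bmp4 (2.12, 94.6th), Id3 (2.00, 93.9th), Bmp2 (1.83, 92.7th) and Id1 (1.5, 89.9th), beside a median of 0.379. It was at 0.747 in Id2, 0.586 in Smad6, 0.45 in Bmpr1a and 0.116 in Smad7. Bmp4, Bmp7, Id1 and Id3 were thus in the upper 25% for both marks, as were 5.12% of all promoters. Within 2000 bp the number was again 4, with Id2 in place of Bmp4.
Bmp2, Bmp4 and Bmp7 had means of 0.796 to 2.60 FPKM in the long-term fPSCs, and Id3, in the same upper 25% for H3K27me3, had 24 ± 14 (SD, n = 7). Along the Bmp4 locus both marks were highest in the 500 bp bin centred 750 bp downstream of the start (5.97 RPKM for H3K4me3 and 5.42 for H3K27me3). At Id3 H3K4me3 reached 12.7 RPKM in the same bin beside 4.51 for H3K27me3. At Bmpr1a H3K4me3 reached 16.2 RPKM 1750 bp downstream of the annotated start, with H3K27me3 at 0.772.

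DNA methylation, the methylated fraction in windows of the deposited track, was averaged within 1000 bp of the start. It was 0 in Smad6, 0.00875 in both Id2 and Smad7, 0.0105 in Bmp7 and 0.0644 in Id1, so that 5 of the 9 were under 0.1, where the lower quartile of all promoters was 0.148 and the median 0.357. Bmp2 had 0.190, Bmp4 0.294, Id3 0.298 and Bmpr1a 0.319. The share of all promoters under 0.1 was not counted, and the standing of a gene depended on the window. Id1 was at the 12.9th percentile within 1000 bp, but its 0.075 within 500 bp was at the 39.1st. Bmp2, at 0.085 within 500 bp, was at the 40.4th. In Id3 the fraction was 0.62 in the 500 bp before the annotated start and 0 in each 500 bp bin of the following 2000 bp, and in Bmp4 it was 0.282 before the start and 0 in the next 500 bp. The RefSeq starts of Id3 and Bmpr1a lie 325 and 795 bp downstream of the annotated starts used for these means, and those of Bmp4, Id2 and Smad6 at the same base. The read coverage behind the fractions was not given.

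**Figure D4:**
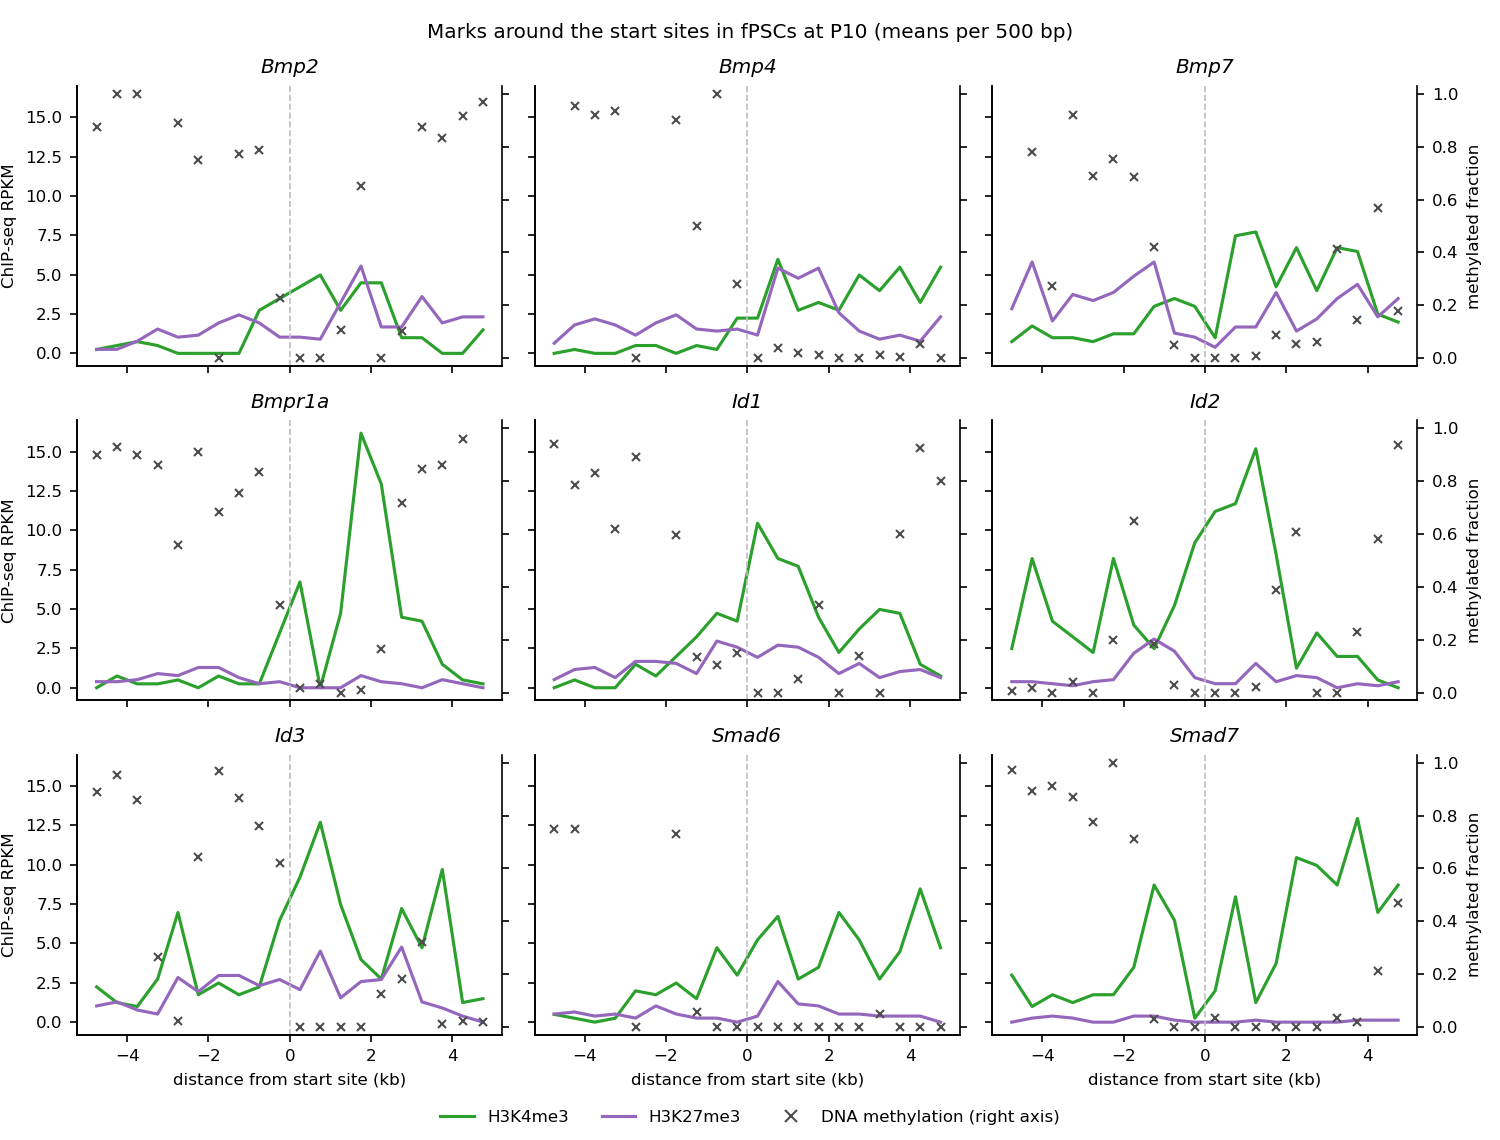
For each gene, H3K4me3 and H3K27me3 (left axis, RPKM) and the methylated fraction (right axis) of P10 fPSCs are drawn in 500 bp bins against distance from the annotated start in kb, downstream to the right. H3K4me3 lies mostly downstream of the starts, H3K27me3 is visible at the 3 ligands, Id1 and Id3 and near 0 at Smad7, and the methylated fraction is near 0 just after the starts.

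In single fPSCs the labels gave 192 picked cells (48 per clone), the tables held 182, and 181 had at least 500 genes. Counts per clone came to 1501395 to 4712214, with a median of 19078 to 33883 per cell. No cell name was shared by the tables, and 1 name was listed 2 times in that of clone 3. The 4 clones are 1 condition, and the values below describe them. Bmpr1a was seen in 105 of 181 cells (58.0%, exact 95% interval 50.5 to 65.3), Smad7 in 77 (42.5%, 35.2 to 50.1), Id2 in 67 (37.0%, 29.97 to 44.5) and Id3 in 59 (32.6%, 25.8 to 39.9). By clone the shares were 47.8% to 75.6% for Bmpr1a, 32.6% to 55.6% for Smad7, 27.3% to 41.3% for Id2 and 15.2% to 44.4% for Id3, and clone 1 was lowest in Id3.
Ligands were rare in single cells. Bmp7 had a count in 12 cells (6.63%, 3.47 to 11.3) and none in clone 1, and Smad6 in 8 (4.42%, 1.93 to 8.52). Bmp2 was seen in 3 cells, at 9, 121 and 49 counts in clones 2, 3 and 4, and Bmp4 in 3 cells with 8 counts in all. Id1 had 2 counts in 2 cells. The upper end of the exact interval allows a share of cells with a count of up to 4.77% for Bmp2 and Bmp4 and 3.93% for Id1. As CPM, the gene's share of all counts of a clone on the usual scale, Bmpr1a was at 120 ± 41.2 (SD, n = 4), Smad7 at 81.2 ± 5.20, Id2 at 64.8 ± 27.3, Id3 at 52.7 ± 35.3, Bmp7 at 13.5 ± 24.2, Bmp2 at 12.1 ± 12.7, Smad6 at 6.56 ± 4.39, Bmp4 at 0.593 ± 1.05 and Id1 at 0.220 ± 0.314. The 121 Bmp2 counts of clone 3 came from a single cell. The intervals cover counting of cells only.

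**Figure D5:**
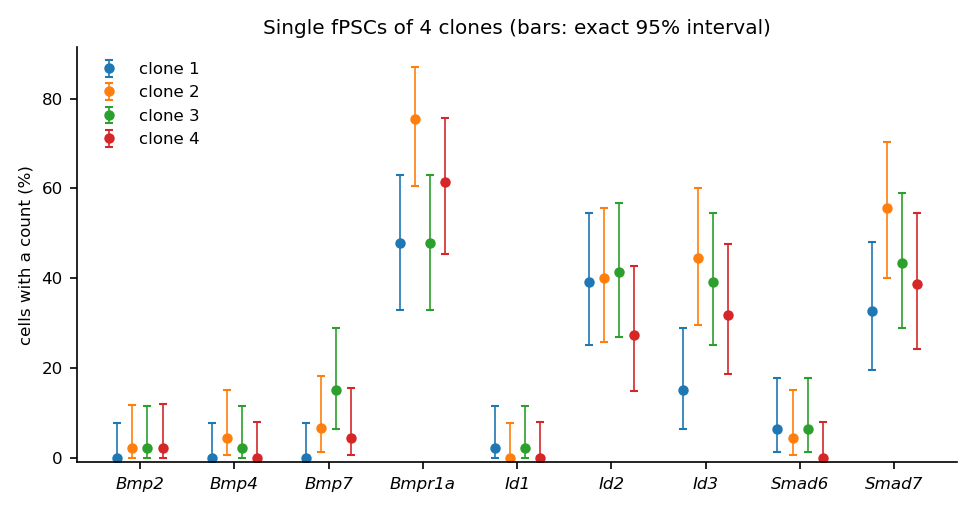
The share of cells with at least 1 count (percent, linear axis) is drawn for each gene in each of 4 fPSC clones, with exact 95% intervals. Bmpr1a, Id2, Id3 and Smad7 have a count in 15.2% to 75.6% of cells in each clone, and the ligands, Id1 and Smad6 in at most 15.2%.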

How the data were processed

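Bulk RNA-seq was done on 19 libraries, and the deposited FPKM table was made by the authors with TopHat2 2.1.1, cutadapt 1.11 and Cufflinks 2.1.1 on mm9, as named in the submitters' processing notes. FPKM are not counts, so depth was not known and no count test was used. The deposited ChIP-seq signal tracks hold RPKM in 100 bp bins (Bowtie2 2.2.2), and the deposited methylation track holds a methylated fraction per window (BS-Seeker2), each as 1 file that gives no value per replicate. The labels list 2 replicates of each, and the study integrated ChIP replicates, but whether each file holds both is not given in the sources used here. Single-cell counts were deposited as tables of whole counts per gene (STAR), and whether these are molecules was not given in the sources used here.

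From FPKM, log2(FPKM + 1) was fitted with limma 3.58.1 (R 4.3.3, empirical Bayes with a trend) over the 13 libraries of mESCs, EpiLCs, EpiSCs and long-term fPSCs. A gene was tested if 2 or more of these libraries reached 1 FPKM, and p-values were adjusted by Benjamini-Hochberg over all 12513. Fold changes on this scale understate the change of low genes. Of 23608 entries, 4 whose name was listed 2 times were left out. The fit was tested on simulated data. Groups with 1 library were given as values with no test. Starts came from GENCODE vM1 on NCBIM37 (mm9), 22072 protein-coding genes with 1 position, and motifs were searched on both strands of RefSeq promoters. Cells with at least 500 genes were used. All 9 genes are named. Of the other pathway genes, at most 3 per comparison were named, those with the largest change among calls whose mean reached 5 FPKM in either group, and similar genes were the top 3 by r. The genes, lists and tests were chosen with earlier results of these data known. Alternatives were a pseudocount of 0.1, no filter, upper-quartile scaling, robust variances, only the groups compared, each set of fPSC libraries, a replicate block and leaving out each library.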

Additional observations from a re-analysis of the deposited data

Results flagged for a closer look

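Among the 7 long-term fPSC libraries, 46C P24 was far from the others in 3 of the 9 genes by the gap to the nearest library over the range (Dixon's test). For Bmp2 it held 11.4 FPKM against 2.32 in the next library (gap over range 0.819). For Bmp4 it held 1.42 FPKM against 0.816 (0.749), and for Id1 29.4 FPKM against 6.83 (0.828). All 3 flags fall on the same library, chance flags about 1 in 20 groups, and the 9 genes are not independent of each other. No other gene of the 9 was flagged at either end. Cer1 (203 FPKM), Chrd (55.3) and Sox17 (50.6) were also highest of the 7 in this library, and their part was not tested.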

How the results depend on the processing

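Counts of called genes moved by over 1.5 times as follows, and the cause was not tested. In fPSCs against mESCs, 3 became 5 with P10, P20 and P30 as the only fPSCs. In fPSCs against EpiLCs, 4 became 2 without the filter and 2 with only the groups compared, and in EpiSCs against EpiLCs 4 became 2 without the filter. In EpiSCs against fPSCs, 1 became 2 with a pseudocount of 0.1, 2 with upper-quartile scaling and 4 with P10, P20 and P30 alone. Between the fPSC sets, 2 became 1 without the filter and 1 with CMT P11 alone. Leaving out single libraries gave 2 to 5 (EpiLCs against mESCs), 1 to 4 (EpiSCs against mESCs), 3 to 5 (fPSCs against mESCs), 0 to 5 (fPSCs against EpiLCs), 1 to 2 (EpiSCs against EpiLCs), 1 to 3 (EpiSCs against fPSCs) and 2 to 2 (sets). Over all genes, upper-quartile scaling took the share of higher calls from 58.8% to 48.6% in EpiSCs against fPSCs and from 70.1% to 50.3% between the sets.

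No called change of a gene turned its direction. Log2 fold changes that turned were not called with all libraries. With the 4 lines alone these were Bmp4 (0.00072) and Bmpr1a (0.011) in fPSCs against EpiLCs and Id3 (-0.61) in EpiSCs against fPSCs. With P10, P20 and P30 alone, Smad7 turned to 0.38 against EpiLCs and to -0.60 in EpiSCs against fPSCs. Upper-quartile scaling turned Smad7 in EpiSCs against fPSCs (-0.065) and, between the sets, Bmpr1a (-0.13) and Smad6 (-0.087). CMT P11 alone turned Bmp4 (-0.051), Bmpr1a (-0.038) and Id1 (-0.36) between the sets. Leaving out single libraries gave ranges on both sides of 0. In EpiLCs against mESCs these were -0.012 to 0.043 for Bmp2, -0.72 to 0.030 for Bmp4, -0.20 to 0.88 for Id3 and -1.25 to 0.22 for Smad7. In fPSCs against EpiLCs they were -0.19 to 0.051 for Bmp4, -0.090 to 0.077 for Bmpr1a and -0.97 to 0.50 for Smad7, and in EpiSCs against EpiLCs -0.96 to 0.51 for Smad7. In EpiSCs against fPSCs they were -0.084 to 0.28 for Id3 and -0.15 to 0.13 for Smad7. Between the sets they were -0.045 to 0.62 for Bmp7, -0.012 to 0.12 for Bmpr1a, -0.47 to 0.63 for Id1 and -0.093 to 0.18 for Smad6.

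With the replicate number as a block, 4, 5 and 5 genes were called in EpiLCs against mESCs, EpiSCs against mESCs and EpiSCs against EpiLCs, in place of 3, 4 and 4, with Id1 added in the first 2 and Bmp2 in the last. Deviations of same-numbered libraries correlated at 0.204, -0.199 and -0.134, so that the numbers did not pair the libraries. Depth was not known, which limits what low FPKM can show.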
